A study of Mus musculus with 40 samples.

Results

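The livers of sons of nicotine-exposed fathers were compared with the livers of sons of control fathers. The table of male liver holds 14591 genes in 10 libraries, and the 9093 genes with a mean normalized count of 10 or more over those libraries were tested. The series as a whole has 40 samples in 8 groups, from the liver and a fat depot of male and female C57BL/6J mice. Both groups used here are male C57BL/6J offspring with no other allele or treatment named, and the father's exposure separates them: 5 samples are labelled control and 5 nicotine. Below, an exposed library is one from a son of a nicotine-exposed father, and no exposure of the sons themselves is meant. The column headers call the control DMSO, and all samples carry batch 1. Dose, route, the age of the sons and which samples share a litter or father were not given in the sources used here, so p-values measure the spread between these samples only. Expression was measured by 3′-tag sequencing, in which each polyadenylated transcript is counted by reads close to its 3′ end. Values are the authors' normalized counts. Log2 changes are nicotine minus control on log2(normalized count + 1), which understates the change of low genes.

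The liver makes cholesterol, converts it to bile acids through a pathway that Cyp7a1 opens, and makes and burns fatty acids. Hepatocytes near the central vein use a Wnt-driven programme (Glul, Cyp1a2, Cyp2e1, Tbx3), and those near the portal vein make glucose and urea. In male mice, pulsed growth hormone keeps a set of male-biased genes high, among them the major urinary proteins.

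The libraries held 1566895 to 2035791 reads, and 100% of the deposited values came out as whole reads within 0.1 reads. Hepatocyte markers such as Alb and Ttr were present throughout: the 11 listed markers summed to 87502 to 100590 normalized counts in the controls and 71354 to 104217 in the nicotine libraries. The lowest sums were those of nicotine 1 and 5. All normalized counts of these libraries totalled 1485048 and 1539615, against 1804444 to 2005695 in the others. Sums given below were not scaled to these totals. The 5 controls correlated with one another at a Pearson r of 0.951 to 0.969 across genes. Nicotine 1 and nicotine 5 correlated with each other at 0.968 but with the controls at only 0.878 to 0.902, and they lay together at the end of the first principal component, which held 34.2% of the variance. Nicotine 4 correlated with the controls at 0.879 to 0.896, nicotine 2 at 0.924 to 0.938 and nicotine 3 at 0.945 to 0.959. The correlations are across genes of the same samples and are given as a description.

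Transcripts of pancreas stood in 1 library. The 16 detected acinar genes, which encode the digestive enzymes of the exocrine pancreas, summed to 13047 normalized counts in nicotine 2, or 0.692% of that library. The other 9 libraries summed to 0 to 8.81. Cela2a (an elastase) read 2018 in nicotine 2, Cpb1 (carboxypeptidase B1) 1985 and Pnlip (pancreatic lipase) 1696, against at most 3.84, 0.819 and 1.05 in any other library. The remaining acinar genes ranged in nicotine 2 from 11.4 for Ctrc to 1274 for Ctrb1, and every one of the 16 was highest there. None of the 6 listed islet genes was in the table. Of the acinar genes 15 passed the expression filter, and 0 would have passed without nicotine 2. Beyond the list, 21 tested genes lay above every other library by 2 or more on the log2 scale in nicotine 2. They made up 0.958% of its counts, 15 of them were on the list, and the highest was Cela1, which was not.

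Transcripts of skeletal muscle stood in another library. The 19 muscle genes summed to 14045 normalized counts in nicotine 4 (0.700% of the library) and to 44.1 to 109 in the other 9. Ttn (titin) read 2679 in nicotine 4, Acta1 (skeletal actin) 2354, Tnni2 and Tnnc2 (troponins) 1331 and 1315, and Mb (myoglobin) 1089, with at most 7.26 for any of these 5 in another library. The other muscle genes ranged there from 21.8 for Myh7 and 28.2 for Actn3 to 776 for Tnnt3, and all 19 were highest in nicotine 4. Neb was the exception in its background, at 34.6 to 101 in the other libraries against 767 in nicotine 4. Of the 16 muscle genes tested, 1 would have been tested without nicotine 4. By the same gap of 2 or more on the log2 scale, 59 tested genes lay above every other library in nicotine 4. They made up 1.20% of its counts, and 16 of them were on the muscle list. Cytosolic ribosomal protein genes were also high in nicotine 4, at a sum of 31853 against 17554 to 20585 elsewhere, as were nuclear genes of the respiratory chain, at 50662 against 25166 to 34731. The part of these transcripts in other results was not tested beyond the values without nicotine 2 and 4 given below.

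**Figure D1:**
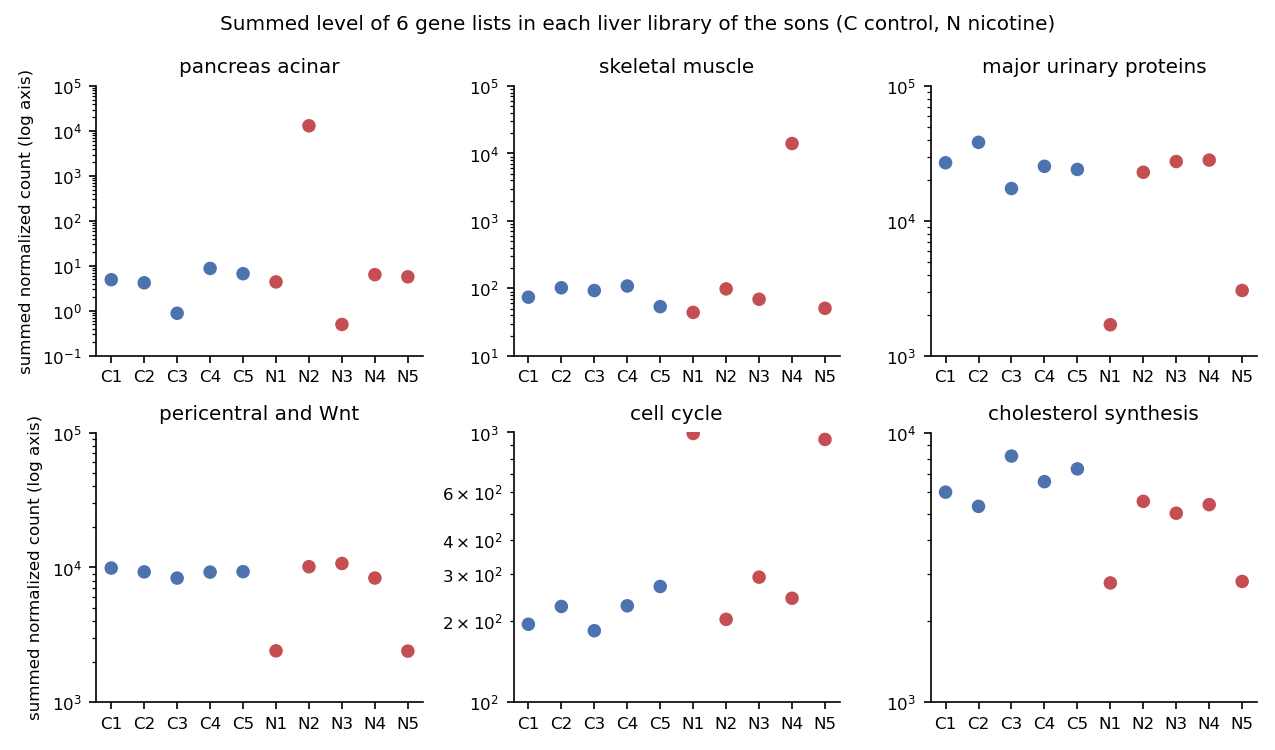
Summed normalized count (log axis) of 6 gene lists in the control (C1 to C5, blue) and nicotine (N1 to N5, red) liver libraries of the sons, with a sum of 0 drawn at 0.5. Pancreas genes reach 13047 in N2 and muscle genes 14045 in N4, while N1 and N5 alone are low in major urinary proteins, pericentral genes and cholesterol synthesis and high in cell cycle genes.

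Nicotine 1 and 5 differed from the other 8 libraries over much of the transcriptome. Both lay above all other libraries at 1022 tested genes and below all of them at 1346, by 1 or more on the log2 scale at 103 and 135. These libraries were picked by this pattern, so the values are a description. Among the 10 widest gaps above were genes of the oxidative-stress response: Slc7a11, the cystine importer, read 105 and 129 against 0 to 1.05, and Srxn1 (sulfiredoxin) read 751 and 703 against 54.9 to 79.8. Glutathione transferases stood with them, Gstm3 at 640.0 and 468 against 20.5 to 45.6 and Gsta2 at 114 and 66.3 against 1.28 to 7.91. The whole list of oxidative-stress and glutathione genes did not follow them in sum, but the normalized totals of nicotine 1 and 5 were also the lowest. It summed to 12077 and 12183 in nicotine 1 and 5, against 13298 to 14623 in the other 8 libraries. Over all 5 nicotine libraries, 14 of its 18 tested members had a higher and 4 a lower mean log2 value, with a median of 0.30. Without nicotine 2 and 4 the median was 0.60, with 10 higher and 1 lower at an unadjusted limma p below 0.05. In that fit 1807 of all tested genes had such a p. Without nicotine 1 and 5 the median was 0.10, with 0 higher and 1 lower. Cdkn1a, the cell cycle inhibitor p21, read 128 and 135 against 3.36 to 16.6. The female-biased Cyp2a4 read 307 and 219 against 7.38 to 21.8, although its reads may be shared with its near-copy Cyp2a5. Ly6d, Tubb2a, Clec7a and D17H6S56E-5 complete the list.

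Below the other libraries, the widest gaps were almost all male-biased genes. Mup11 read 17.7 and 16.4 against 2446 to 13694, and 5 more major urinary protein genes (Mup17, Mup7, Mup16, Mup1 and Mup12) were between 0 and 4.91 in both. Hsd3b5, a steroid dehydrogenase of male liver, read 0 and 0.819 against 210 to 405. Elovl3, a fatty acid elongase, read 0 and 1.64 against 76.8 to 218, and Cyp7b1, the oxysterol hydroxylase, 7.36 and 11.5 against 321 to 1239. Glul, the glutamine synthetase of the innermost pericentral hepatocytes, read 389 and 385 against 1787 to 2322. In bulk tissue, fewer cells of a type and less RNA per cell cannot be told apart.

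Across all 5 against 5 libraries, limma called 5 of 9093 genes at an adjusted p below 0.05 (0.055%). Cyp7a1, Cirbp and Tbx3 fell, and Cystm1 and Ccn2 rose. At each of them all nicotine libraries lay on one side of all controls, as they did above the controls at 119 of all tested genes (1.31%) and below them at 168 (1.85%). An unadjusted limma p below 0.05 was reached by 630 genes higher in nicotine (6.93%) and 692 lower (7.61%), and the median log2 change over all tested genes was 3.3e-06. Counts of list members given below are to be read beside these shares. EdgeR's quasi-likelihood test on the recovered reads called 3 genes (1 higher, 2 lower) and DESeq2 161 (86 higher, 75 lower). The authors' deposited table has 154 genes at an adjusted p below 0.05, 80 higher and 74 lower, and includes all 5. Calls depended on single libraries: limma called 0 genes when control 1, 2, 3 or 5, nicotine 1 or nicotine 4 was left out, with 934 to 1387 genes at an unadjusted p below 0.05 in those fits. It called 3 genes without control 4, 1 without nicotine 5, 2 without nicotine 3 and 12 without nicotine 2.

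Cyp7a1 encodes cholesterol 7α-hydroxylase, the slowest and most regulated step from cholesterol to bile acids (GRCm38 chr4:6265612-6275633, minus strand). It read 846, 994, 700.2, 706 and 698 normalized counts in controls 1 to 5 and 236, 261, 427, 261 and 129 in nicotine 1 to 5. The highest nicotine value lay well under the lowest control, and nicotine 3, the library with neither pancreas nor muscle transcripts nor the pattern of nicotine 1 and 5, was the closest to the controls. The means were 789 ± 131 and 263 ± 107 (SD, n = 5 each), a ratio of 0.333, and the log2 change was -1.67 (SE 0.25, limma adjusted p = 0.0249). Without nicotine 1 and 5 the change was -1.34 (limma adjusted p = 0.00439), and without nicotine 2 and 4 it was -1.73 (limma adjusted p = 0.0735).

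Cirbp encodes the cold-inducible RNA-binding protein, whose transcript is known to be higher at lower temperature (chr10:80165985-80172786, plus strand). It read 46.5, 51.7, 42.5, 51.9 and 52.6 in the controls and 19.9, 29.0, 19.9, 17.9 and 21.3 in the nicotine libraries. The controls were tight and nicotine 2 was the highest of the exposed group, still below every control. The log2 change was -1.16 (SE 0.17, limma adjusted p = 0.0249), -1.13 without nicotine 1 and 5 (adjusted p = 0.0549) and -1.22 without nicotine 2 and 4 (adjusted p = 0.0396).

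Tbx3, a transcription factor of the T-box family and a Wnt target of pericentral hepatocytes (chr5:119670669-119684724, plus strand), read 85.0, 105, 88.6, 64.6 and 132 in the controls. In the nicotine libraries it read 28.0, 44.6, 34.6, 43.5 and 29.5, so that nicotine 2 and 4 were nearest to the lowest control. The log2 change was -1.36 (SE 0.20, limma adjusted p = 0.0249), -1.17 without nicotine 1 and 5 (adjusted p = 0.0549) and -1.57 without nicotine 2 and 4 (adjusted p = 0.0396).

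Cystm1, which encodes a small cysteine-rich membrane protein, read 14.8, 13.7, 17.7, 22.5 and 15.7 in the controls and 64.0, 44.6, 30.4, 57.6 and 51.6 in the nicotine libraries. Nicotine 3 was the lowest exposed library and still above the highest control. The log2 change was 1.48 (SE 0.22, limma adjusted p = 0.0249), 1.31 without nicotine 1 and 5 (adjusted p = 0.0629) and 1.43 without nicotine 2 and 4 (adjusted p = 0.0735).

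Ccn2 (connective tissue growth factor, a matricellular protein and classic YAP and TEAD target, chr10:24595442-24598683, plus strand) read 8.90, 8.44, 3.55, 1.96 and 2.24 in the controls. It read 91.2, 29.0, 28.3, 28.2 and 25.4 in the nicotine libraries. Nicotine 1 stood far above the other 4, which were close to one another, and all exceeded the highest control. The mean ratio was 8.06 and the log2 change 2.78 (SE 0.44, limma adjusted p = 0.0375), 2.48 without nicotine 1 and 5 (adjusted p = 0.0549) and 2.98 without nicotine 2 and 4 (adjusted p = 0.0735).

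**Figure D2:**
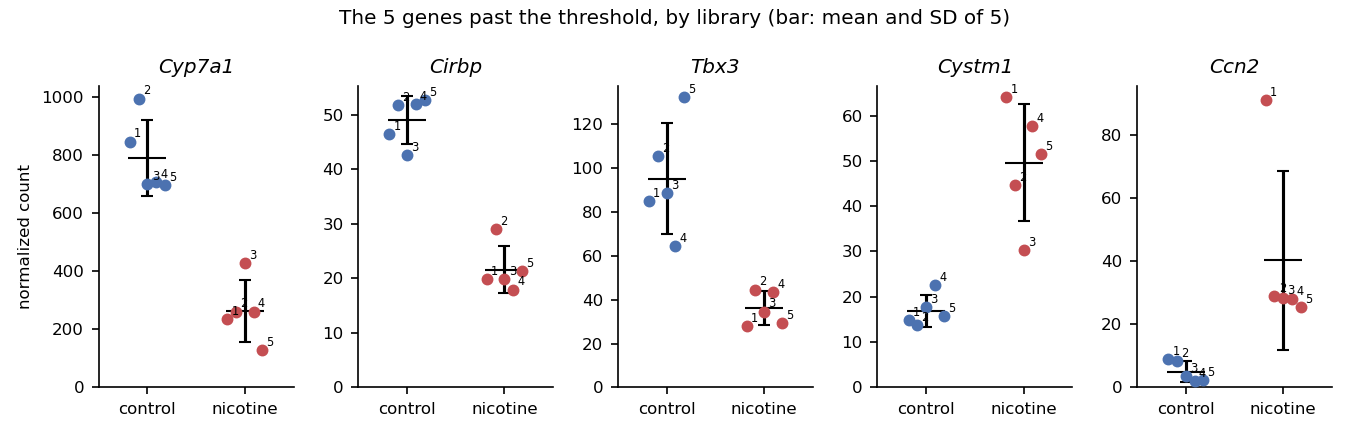
Normalized counts of the 5 called genes in each library (points, numbered by replicate; black bar, mean and SD of 5). The control (blue) and nicotine (red) points do not overlap for any of the 5, and nicotine 1 reads 91.2 for Ccn2 against 25.4 to 29.0 in the other exposed libraries.

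The next genes by p did not pass the adjusted threshold with all 10 libraries, and their values are given as they stand. Plk3, a stress-responsive kinase, read 31.6 to 63.3 in the controls and 68.4 to 172 in the nicotine libraries. Serpinh1, the collagen chaperone HSP47, read 6.92 to 19.0 and 22.0 to 66.6. Slc10a2, the sodium-dependent bile acid transporter, read 11.6 to 39.9 and 56.6 to 113. The groups did not overlap at these 3 genes, nor at Slc41a2 (a magnesium transporter), Bloc1s4, Mrpl21 (a mitochondrial ribosomal protein) and Ski (a corepressor of TGF-β signalling). Their limma adjusted p lay between 0.0989 for Plk3 and 0.122 for Ski. Plk3 had an adjusted p of 0.0412 when nicotine 2 and 4 were left out.

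Among the lower genes, Gpam, which catalyses the first step of glycerolipid synthesis, read 332 to 492 in the controls and 193 to 292 in the nicotine libraries (limma adjusted p = 0.0719). Acbd5, a peroxisomal tether and acyl-CoA binder, read 690 to 754 and 389.9 to 539 (adjusted p = 0.0869). Ppm1k, the phosphatase that activates branched-chain amino acid breakdown, read 314 to 454 and 174 to 302. All 3 had an adjusted p of 0.04 in limma without nicotine 2 and 4. The groups also did not overlap at Pcyt1a (the rate-limiting enzyme of phosphatidylcholine synthesis), Ppp2r5a (a regulatory subunit of phosphatase 2A), Aldoc (aldolase C) and Banp, each with a limma adjusted p of 0.113.

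Of the bile acid synthesis enzymes, Cyp7a1 fell and the list's median depended on nicotine 1 and 5. All 15 listed enzymes were tested and all had a lower mean log2 value in nicotine, with a median of -0.33. Of these, 1 passed the adjusted test (Cyp7a1), and 4 had an unadjusted limma p below 0.05, all lower. Cyp8b1, the sterol 12α-hydroxylase that sets cholic acid output, read 269, 430, 214, 222 and 246 in the controls and 21.3, 143, 134, 84.5 and 25.4 in the nicotine libraries. These groups did not overlap, and nicotine 1 and 5 were far below the other exposed libraries. Its log2 change was -2.09 (SE 0.47, limma adjusted p = 0.122), or -1.18 without nicotine 1 and 5 (adjusted p = 0.0549). Cyp27a1, which opens the alternative pathway, overlapped: 177 to 222 in the controls and 87.5, 209, 190, 114 and 69.6 in nicotine 1 to 5. Hsd3b7, the next enzyme after the hydroxylases, read 480.4 to 770.3 and 332 to 538. Cyp7b1 separated only nicotine 1 and 5, with 440 to 817 in nicotine 2 to 4 against 321 to 1239 in the controls.

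Without nicotine 1 and 5 the median of the bile acid enzymes was -0.01, with 3 lower and 1 higher at an unadjusted p below 0.05 (Cyp2c70 the higher). Over all tested genes 577 were higher (6.35%) and 523 lower (5.75%) in that fit, with a median of 0.014. Of the list, Cyp7a1 alone passed the adjusted test in that fit. Among the 15 transporters and regulators, 7 had an unadjusted p below 0.05 with all libraries, all lower, with a median of -0.22. Unlike that of the enzymes, this median stayed at -0.23 without nicotine 1 and 5, with 4 lower and 0 higher. Abcg8, part of the canalicular sterol exporter, read 140.3 to 218 and 81.1 to 133, and Slco1b2, an uptake transporter, 7951 to 9744 and 2320 to 7878, without overlap. Nr1h4, the bile acid receptor FXR, read 188 to 232 and 102 to 196. Its target Nr0b2 (SHP) read 4.48 to 17.8 and 6.62 to 18.7, a log2 change of -0.20 (limma unadjusted p = 0.616).

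Cholesterol synthesis enzymes had lower means in the nicotine group at every member tested. Of 20 enzymes 19 were tested (Idi1 was too low), all 19 had a lower mean log2 value in nicotine, and the median was -0.83. None passed the adjusted test, and 12 had an unadjusted limma p below 0.05, all lower, against 7.61% of all tested genes. Hmgcs1, which makes HMG-CoA, read 740, 736, 1487, 994 and 1101 in the controls and 313, 621, 485, 539 and 313 in the nicotine libraries. Nicotine 1 and 5 were the lowest, and nicotine 2 to 4 lay between them and the lowest control. Dhcr7, which makes cholesterol in the last step, read 39.6, 41.1, 51.4, 43.1 and 40.3 and then 18.4, 35.2, 15.7, 21.8 and 16.4, with nicotine 2 nearest to the controls. These groups did not overlap, nor did those of Msmo1 and Hsd17b7, which act late in the pathway. In all, 5 of the 19 lay below every control without overlap, against 1.85% of all tested genes. The log2 change of Hmgcs1 was -1.16 (SE 0.24, limma adjusted p = 0.113).

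Leaving out nicotine 1 and 5 reduced the cholesterol median to -0.23 with 5 members below an unadjusted p of 0.05, all lower. Those 5 were the members without overlap, with log2 changes of -0.84 for Hmgcs1, -0.87 for Dhcr7, -0.59 for Hsd17b7 and -0.58 for Msmo1 among them. Sqle, the squalene epoxidase, shows the contrast: 156 to 239 in the controls, 30.9 and 38.5 in nicotine 1 and 5, and 112 to 159 in nicotine 2 to 4. Control 3 was the highest control for most of the pathway, 239 for Sqle among them. Without nicotine 2 and 4 the median was -1.28.

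Srebf2, the sterol-responsive transcription factor of the pathway, read 40.5 to 75.0 in the controls and 24.3 to 45.0 in the nicotine libraries (log2 change -0.63, limma adjusted p = 0.208). Insig1, which retains its precursor in the endoplasmic reticulum, read 87.5 to 150 and 31.6 to 127 (log2 change -0.72, limma adjusted p = 0.304). Mylip, a ubiquitin ligase under sterol control, was higher in mean, at 31.9 to 44.8 and 44.2 to 65.3. Over the 16 tested genes of sterol regulation and uptake 1 was higher and 4 lower at an unadjusted p below 0.05, with a median of -0.17, and 1 higher and 2 lower with a median of -0.07 without nicotine 1 and 5.

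Hmgcs1 was the 1 gene of 15 with a promoter entry whose 250 bases upstream of the RefSeq start hold the sterol response element TCACNCCAC on either strand, a match found in 1.05% of 32851 RefSeq promoters. The stretch from 150 to 51 bases upstream (GRCm38.p6 chr13:119690201-119690300, plus strand) is shown because Hmgcs1 had the smallest p of the pathway, with the match in capitals.
Hmgcs1: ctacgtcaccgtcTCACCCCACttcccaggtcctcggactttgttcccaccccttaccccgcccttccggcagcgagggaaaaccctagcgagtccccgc
The distances hold for the RefSeq start only. GENCODE starts the gene at 119690379, and the end of the RefSeq window was not found in a GENCODE transcript of Hmgcs1. A match describes the letters only and says nothing of binding in these samples.

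Fatty acid synthesis followed cholesterol synthesis in direction. Of 20 tested genes 18 had a lower mean log2 value, 8 had an unadjusted limma p below 0.05, all lower, and the median was -0.36. Scd1, the stearoyl-CoA desaturase, read 7191, 4798, 10503, 5695 and 8774 in the controls and 3477, 3295, 4835, 4238 and 3950 in the nicotine libraries. Only control 2 fell inside the nicotine range, and the 5 exposed libraries kept to a narrow range, nicotine 1 and 5 among the others. Its log2 change was -0.86 (SE 0.22, limma adjusted p = 0.14). Elovl5, a polyunsaturated fatty acid elongase, read 1787 to 2528 and 1101 to 1704, without overlap. Fasn (fatty acid synthase) read 249 to 568 and 148 to 395. Acss2, the cytosolic acetyl-CoA synthetase, and Thrsp were lowest in nicotine 1 and 5, at 31.6 and 45.0 and at 37.5 and 79.4, whereas Thrsp read 772 to 1068 in nicotine 2 to 4 against 418 to 948 in the controls. Srebf1 overlapped (45.3 to 87.1 and 35.8 to 120). The median was -0.13 without nicotine 1 and 5, with 5 lower and 0 higher at an unadjusted p below 0.05.

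Of 25 tested genes of fatty acid oxidation and ketone bodies, 7 were lower and 1 higher at an unadjusted limma p below 0.05, with a median of -0.14. Leaving out nicotine 1 and 5 gave 5 lower and 2 higher and a median of -0.05. Ppara, the nuclear receptor of fasting lipid use, read 1222, 1171, 1363, 1269 and 1299 in the controls and 608, 1140.1, 1084, 879 and 665 in the nicotine libraries. All 5 exposed values were below all controls, nicotine 2 and 3 by little. Cpt2 read 177 to 236 and 123 to 146, also without overlap, and Cpt1a, the entry step of mitochondrial oxidation, read 1064, 1007, 1072, 864 and 1185 and then 603, 685, 878, 708 and 538, overlapping by nicotine 3 alone (log2 change -0.62, limma adjusted p = 0.122). Ehhadh was the higher one, at 4.43 to 19.0 and 14.1 to 69.9. Of 13 genes of glucose output and glycolysis, 3 were lower and 0 higher at an unadjusted p below 0.05 (median -0.21), against 7.61% and 6.93% of all tested genes. Leaving out nicotine 1 and 5 gave 1 lower and 1 higher and turned the median to 0.11. The gluconeogenic genes Pck1 and G6pc1 overlapped, Pck1 at 5163 to 6942 and 4634 to 10815 and G6pc1 at 340 to 832 and 269.98 to 705.

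**Figure D3:**
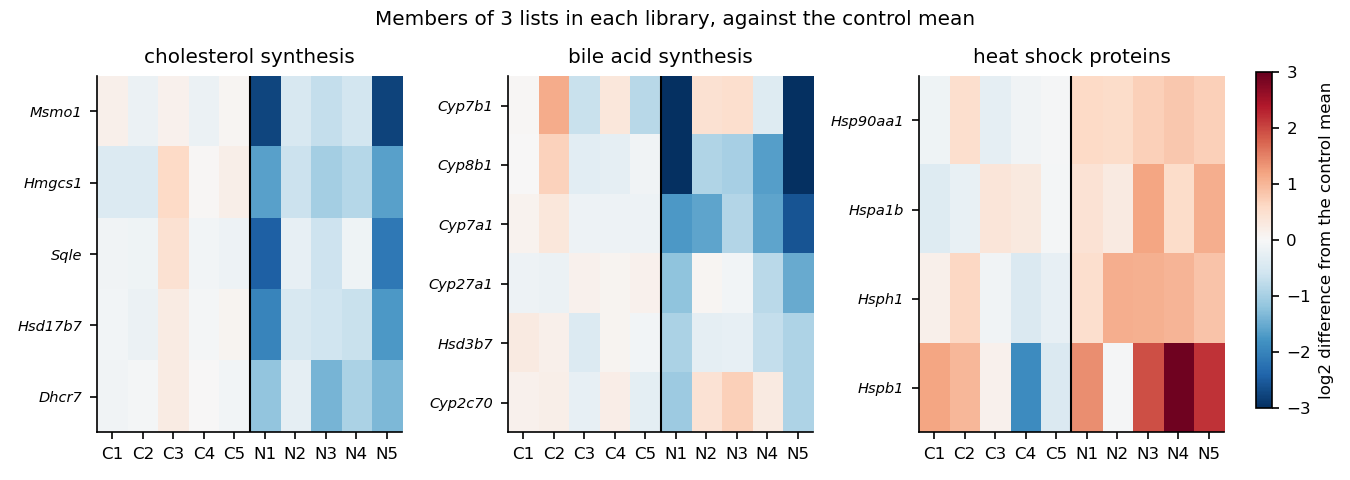
log2 difference of each library from the control mean for 15 members of 3 lists that the text names (rows: genes; columns: C1 to C5 control, N1 to N5 nicotine; colours saturate at -3 and 3). N1 and N5 are the lowest columns for most of the cholesterol and bile acid enzymes drawn, Cyp7a1 is low in all 5 exposed libraries, and Hsp90aa1 is above all controls in all 5.

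The pericentral and Wnt list summed to 2410 and 2400 in nicotine 1 and 5, against 8338 to 10703 in the other 8 libraries. Of 13 tested, 1 was called (Tbx3), 7 had an unadjusted p below 0.05, all lower, and the median was -0.72. Rnf43, a Wnt feedback ligase, read 15.8 to 25.8 in the controls and 12.5, 15.5, 6.28, 11.5 and 6.55 in the nicotine libraries, without overlap. Axin2, another feedback gene, read 14.2 to 24.6 and 17.7, 11.4, 10.5, 8.96 and 11.5, with nicotine 1 the one inside the control range. By contrast Glul read 2253, 2322 and 1787 in nicotine 2 to 4 against 2105 to 2300 in the controls, Cyp1a2 1071, 1056 and 855 against 924 to 1199, and Cyp2e1 2984, 3545 and 2116 against 1877 to 2704. Without nicotine 1 and 5 the median of the list was -0.07, and Tbx3, Rnf43 and Axin2 were the 3 lower genes at an unadjusted p below 0.05, with 1 higher. Periportal genes had a median of 0.09, and of -0.03 without nicotine 1 and 5. Of 14, 1 was higher (Sds) and 2 lower (Pigr and Hal) at an unadjusted p below 0.05. Over all tested genes the shares were 6.93% and 7.61%.

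Male-biased genes summed to 2215 and 5560 in nicotine 1 and 5, against 22016 to 28875 in nicotine 2 to 4 and 13514 to 33422 in the controls. The 13 tested major urinary protein genes had a median log2 change of -1.95, with 2 at an unadjusted p below 0.05, both lower, and a median of 0.26 with none in either direction once nicotine 1 and 5 were left out. Their sum was 1702 and 3054 in nicotine 1 and 5, 22957 to 28257 in nicotine 2 to 4 and 17385 to 38256 in the controls. These genes are near-identical copies whose reads cannot be assigned with certainty, so the sum is the safer value. The 16 tested male-biased genes outside that family had a median of -1.33 with all libraries and -0.08 without nicotine 1 and 5. Of the growth hormone axis, Ghr (the receptor) read 568 to 797 in the controls and 247 and 295 in nicotine 1 and 5, against 499 to 777 in nicotine 2 to 4. Bcl6, a repressor in growth hormone signalling, went the other way: 11.2 to 42.2 in the controls, 18.4 and 16.4 in nicotine 1 and 5, and 54.9, 120 and 104 in nicotine 2 to 4. Socs2 was highest in nicotine 3 (879) against 115 to 301 in the controls and 139 to 259 in the other exposed libraries. Of 7 tested female-biased genes, 5 had a higher and 2 a lower mean log2 value, with a median of 0.17. At an unadjusted p below 0.05, 2 were higher and 0 lower. Without nicotine 1 and 5, 1 was higher and the median was 0.01. Fmo2 was the 1 member above all controls in every exposed library, at 36.3 to 92.2 against 22.5 to 35.8.

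Clock genes were lower in mean at 17 of 19 tested, with a median of -0.27. Of the 19, 4 were below an unadjusted p of 0.05, all lower, against 7.61% of all tested genes. Bhlhe40, a repressor of the clock loop, read 250.2, 221, 226, 183 and 207 in the controls and 141, 160, 139, 134 and 147 in the nicotine libraries, without overlap and with little spread among the exposed. Ciart, Per3 and Tef, also on the clock list, overlapped. They read 10.3 to 22.0, 19.7 to 42.9 and 191 to 320.3 in the nicotine libraries against 20.2 to 44.3, 34.7 to 66.5 and 285 to 417. Leaving out nicotine 1 and 5 also gave 4 lower genes and a median of -0.19, with Tef no longer among the 4. The time of day of sampling was not given in the sources used here.

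None of the heat shock genes passed the adjusted test, and the members with a low unadjusted p were all higher in nicotine. Of 18 tested, 16 had a higher mean log2 value, 5 had an unadjusted limma p below 0.05, all higher, and the median was 0.32. Hsp90aa1, the inducible HSP90, read 283, 441, 256, 289 and 302 in the controls and 463, 452, 510.0, 544 and 507 in the nicotine libraries, so that only control 2 came near the exposed range (log2 change 0.68). Hsph1 (HSP110) read 69.2, 96.0, 57.6, 46.0 and 52.6 and then 88.3, 133, 132, 128 and 113, with the highest control above nicotine 1. Its log2 change was 0.91 (SE 0.19, limma adjusted p = 0.122). Hspa1b, the inducible HSP70 that is nearly identical to Hspa1a, read 14.8 to 25.7 and 23.8 to 46.1, and Hspb1 (HSP27) 0.979 to 15.8 and 6.22 to 55.0. The fit without nicotine 1 and 5 gave 9 higher and 0 lower with a median of 0.44, and the fit without nicotine 2 and 4 gave 5 higher and 0 lower with a median of 0.29. Nicotine 4, which carries muscle transcripts, was highest for Hspb1 and Hsp90aa1, while Hsph1 was highest in nicotine 2.

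The heat shock element GAANNTTC, a palindrome, lay within 250 bases upstream of the RefSeq start at 6 of the 15 listed genes with a promoter entry (Dnaja1, Hspa1a, Hspa1b, Hspb1, Hspd1 and Hspe1) and in 6.69% of all RefSeq promoters. Of these 6, Hspb1 and Hspa1b had an unadjusted p below 0.05, so their stretches from 150 to 51 bases upstream are shown, with matches in capitals. They are GRCm38.p6 chr5:135887769-135887868 on the plus strand and chr17:34959289-34959388 on the minus strand.
Hspb1: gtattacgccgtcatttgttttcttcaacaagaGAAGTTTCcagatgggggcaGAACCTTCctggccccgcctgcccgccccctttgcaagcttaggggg
Hspa1b: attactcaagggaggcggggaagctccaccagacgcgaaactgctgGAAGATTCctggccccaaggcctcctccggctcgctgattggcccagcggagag
Hspb1 holds 2 matches in this stretch and Hspa1b 1.

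Of the other lists of stress and growth genes, the unfolded protein response and the ribosomal proteins varied most with the libraries included. Of the unfolded protein response, 5 of 22 tested were higher and 0 lower at an unadjusted p below 0.05 (median 0.18). The fit without nicotine 1 and 5 gave 12 higher and 1 lower (median 0.40), and the one without nicotine 2 and 4 gave 3 higher and 0 lower with a median of the other sign (-0.05). Hspa5 (BiP), its central chaperone, read 2392 to 3852 in the controls and 3091, 5226, 3530.3, 4969 and 3581 in the nicotine libraries, highest in nicotine 2 and 4. Manf read 91.3 to 245 and 188, 310, 240, 320.0 and 174. Immediate early genes were higher in mean at 10 of 10 tested, with a median of 0.56. Of the 10, 4 were below an unadjusted p of 0.05, against 6.93% of all tested genes. Leaving out nicotine 1 and 5 gave 4 higher and a median of 0.39. Leaving out nicotine 2 and 4 gave 5 higher and 0.57, with 0 lower in each. Egr1 read 13.4 to 34.8 and 36.3 to 119, and Btg2 36.6 to 48.9 and 53.9 to 130.2, without overlap. Ribosomal protein genes were higher in mean at 78 of 80. Of the 80, 14 were below an unadjusted p of 0.05, all higher, against 6.93% of all tested genes. The median of the list was 0.24. That median was 0.08 without nicotine 2 and 4, with 6 higher, and the summed level of nicotine 4 was given above. It was 0.35 without nicotine 1 and 5, with 33 higher and 0 lower, against 6.35% of all tested genes higher in that fit.

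Glucocorticoid-responsive genes included both directions. Of 11 tested 4 were higher and 1 lower at an unadjusted p below 0.05, with a median of 0.41, which was 0.21 without nicotine 2 and 4. The metallothioneins Mt1 and Mt2 read 109.6 to 341 and 44.3 to 172 in the controls and 169 to 749.6 and 92.2 to 469 in the nicotine libraries, highest in nicotine 1 and 5. Zbtb16 was the lower one, at 113 to 218 and 61.8 to 129. Acute-phase genes had a median of 0.09 over 19, with 5 higher and 1 lower, and of 0.19 with 7 higher and 1 lower without nicotine 1 and 5. Saa1 read 208 to 575 in the controls and 331, 783, 882, 2913 and 629 in the nicotine libraries, highest in nicotine 4. Il6ra, the interleukin-6 receptor, was below every control in every exposed library, at 14.7 to 25.9 against 34.2 to 42.5.

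Matrix and stellate cell genes had higher means at 15 of 15 tested, with a median of 0.99. Of the 15, 8 were below an unadjusted p of 0.05, against 6.93% of all tested genes. Pdgfra, a fibroblast receptor, read 2.97 to 7.83 in the controls and 35.3, 8.29, 16.8, 15.4 and 25.4 in the nicotine libraries, without overlap. Col3a1 read 20.8 to 45.3 and 272, 58.0, 45.0, 96.0 and 221, and Col1a1 3.96 to 43.7 and 192, 15.5, 19.9, 124 and 174. The summed list was 848 to 1065 in the controls, 2719 and 2331 in nicotine 1 and 5, 2197 in nicotine 4 with its muscle transcripts, and 908 and 883 in nicotine 2 and 3. The median was 0.52 without nicotine 1 and 5, and 2 of 15 were below an unadjusted p of 0.05. Of the 10 tested YAP and TEAD targets, 1 was called (Ccn2), 3 were higher and 0 lower at an unadjusted p below 0.05, and the median was 0.43. Leaving out nicotine 1 and 5 gave 2 higher and a median of 0.19.

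Macrophage genes were highest in nicotine 1 and 5. The complement genes C1qa, C1qb and C1qc of Kupffer cells read 34.6 to 50.6, 12.4 to 28.4 and 20.4 to 44.0 in the controls and 46.1 to 97.8, 27.2 to 49.1 and 42.2 to 71.2 in the nicotine libraries. Of 11 Kupffer and macrophage genes 4 were higher and 0 lower at an unadjusted p below 0.05 (median 0.36), and 2 were higher without nicotine 1 and 5 (median 0.05). Gpnmb and Mmp12, of lipid-loaded macrophages, read 51.5 and 45.9, and 79.4 and 80.3, in nicotine 1 and 5, against 0 to 1.77 and 0 to 4.22 elsewhere. Fabp5 went against its list, at 147 to 289 in the controls and 16.9, 111, 90.1, 131 and 22.1 in the nicotine libraries, without overlap. Trem2 was too low to test.

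**Figure D4:**
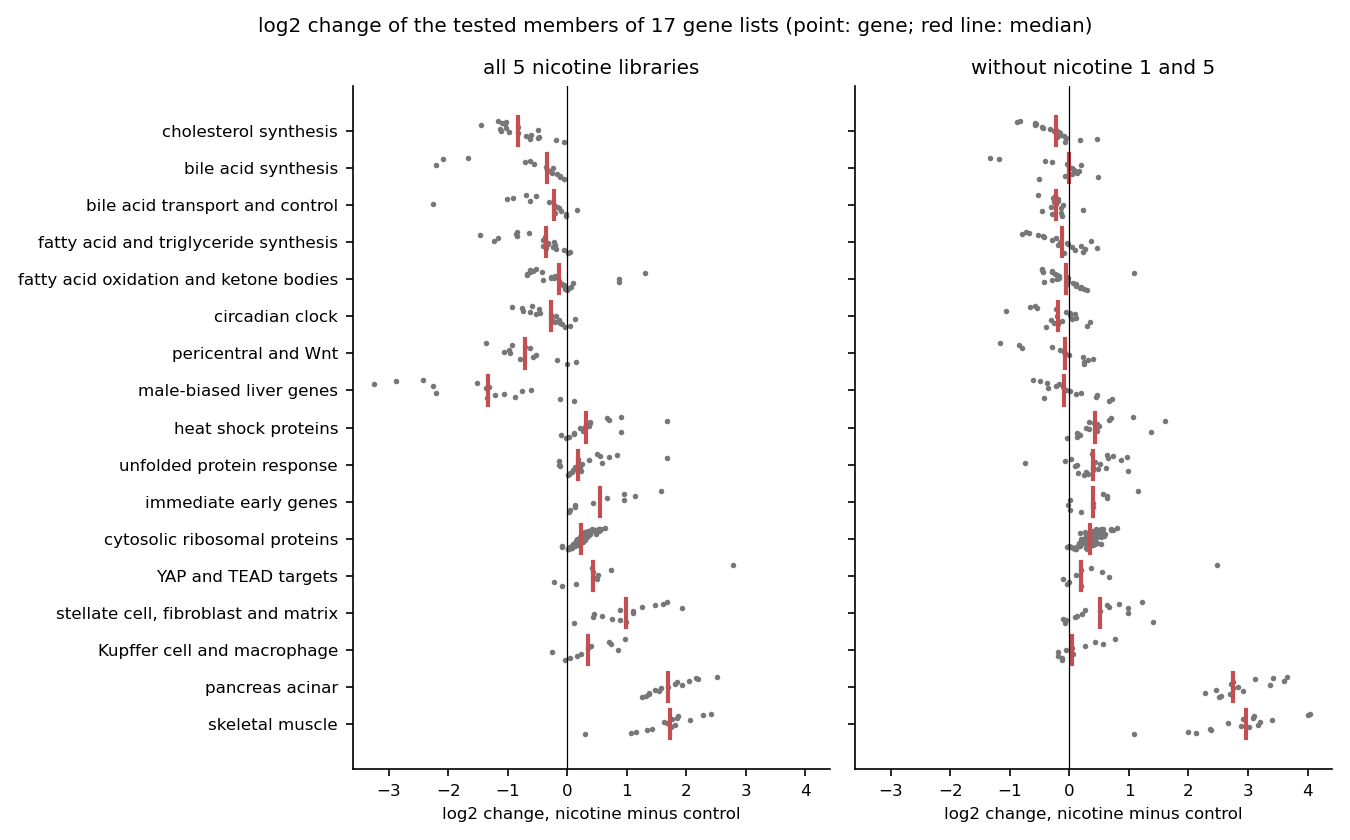
log2 change (nicotine minus control) of each tested member (grey points) and list median (red line) for 17 gene lists, with all 5 exposed libraries (left) and without nicotine 1 and 5 (right). The cholesterol median moves from -0.83 to -0.23 and the male-biased median from -1.33 to -0.08, while heat shock proteins stay at 0.32 and 0.44. The pancreas and muscle lists show what single libraries contribute.

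Nicotine-metabolizing and xenobiotic genes were examined because of the fathers' exposure. Cyp2a5, the mouse nicotine oxidase, read 236, 161, 242, 233 and 162 in the controls and 541, 240.5, 270.2, 257 and 460.2 in the nicotine libraries, with a log2 change of 0.71 (SE 0.23, limma adjusted p = 0.208). Nicotine 1 and 5 were high, and nicotine 2 to 4 lay within or just above the control range. The log2 change was 0.33 in the limma fit without nicotine 1 and 5. Cyp3a11, a PXR target, read 1021 to 1518 in the controls, 8278 and 4827 in nicotine 1 and 5, and 1187 to 1933 in the others. Ahr, the aryl hydrocarbon receptor, read 47.9 to 72.2 and 48.6, 41.5, 23.0, 25.6 and 31.9, a log2 change of -0.86 that was -1.03 without nicotine 1 and 5. Of 9 tested genes of nicotine oxidation and AhR signalling, 1 was higher and 3 lower at an unadjusted p below 0.05 (median -0.13), and 1 of 9 was lower without nicotine 1 and 5.

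The sons' changes were set against those of the daughters' livers, 5 control and 5 nicotine libraries from a table normalized on its own. The difference of the 2 changes was tested by an interaction term in limma, which called 140 of 9149 genes (1.53%). Cyp7a1 went in opposite directions: it averaged 105 in control and 718 in nicotine daughters, a log2 change of 2.71 (SE 0.24), and the sons-minus-daughters difference was -4.38 (SE 0.40, limma adjusted p = 1.05e-06). Tbx3 averaged 81.6 and 91.4 in daughters, a difference of -1.51 (limma adjusted p = 0.0094), and Cirbp 30.0 and 28.9, a difference of -1.11 (adjusted p = 0.0196). The difference did not pass for Cystm1 (1.37, SE 0.38, adjusted p = 0.0692) or Ccn2 (1.13, SE 0.77, adjusted p = 0.484). Cystm1 averaged 17.7 in control and 20.5 in nicotine daughters. Ccn2 averaged 4.73 and 14.9, higher in nicotine in daughters also, but was too low to be tested in the daughters alone.

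Among the other named genes the heat shock member Hsph1 averaged 97.6 and 55.9 in daughters, and its difference of 1.69 passed (limma adjusted p = 0.00324). The changes of Serpinh1 (2.58), Gpam (-1.13) and Cyp1a2 (-1.81) also differed between the sexes. Cyp1a2 averaged 479 in control and 846 in nicotine daughters. In sons its log2 change was -0.97 (limma adjusted p = 0.297), and -0.16 without nicotine 1 and 5, which read 241 and 242. The difference did not pass for 2 cholesterol genes, which does not show that the sexes were alike: it was -0.57 (SE 0.41) for Hmgcs1 and -0.55 (SE 0.50) for Sqle, with limma adjusted p of 0.518 and 0.632. In all, 14 of the 40 named genes passed, against 1.53% of all genes tested. Many of the 40 were named for a small p in these same sons, which favours such a difference. The count is therefore a description.

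**Figure D5:**
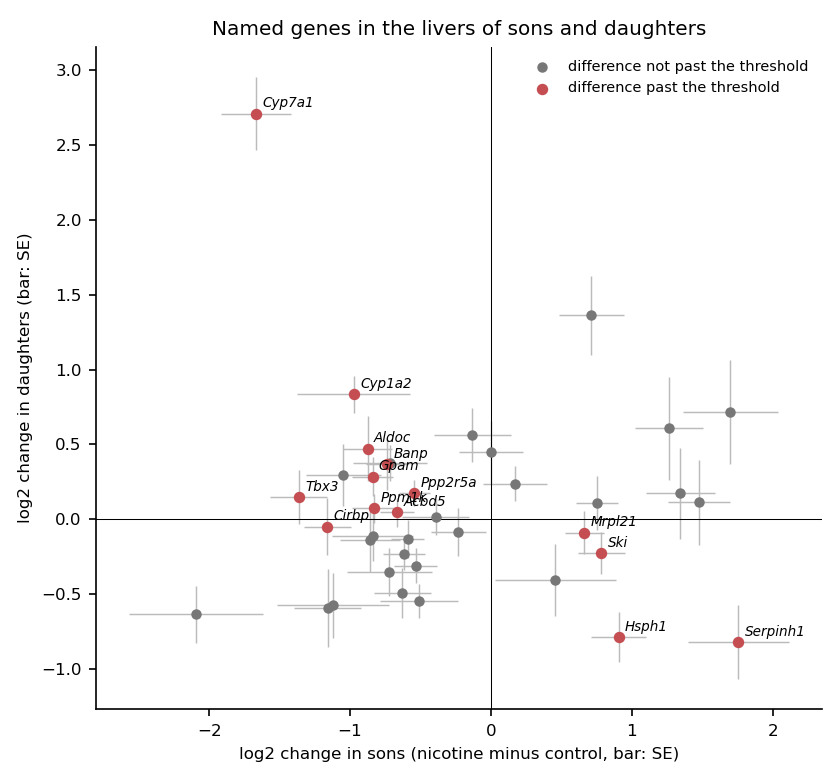
log2 change in daughters against log2 change in sons for the named genes tested in both tables (bars, SE; red, sons-minus-daughters difference past the adjusted threshold of 0.05). Ccn2, too low to be tested in the daughters alone, has no point. Cyp7a1 sits alone at -1.67 in sons and 2.71 in daughters, and Hsph1 and Serpinh1 lie at the lower right.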

How the data were processed

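Liver RNA of 10 sons (5 control, 5 nicotine) was analysed, with 10 daughters for 1 comparison. Per the submitters' processing notes, cutadapt, STAR, DESeq2 and the mm10 genome were used; versions, the counting step and the use of strand were not given in the sources used here, so reads of overlapping antisense genes may be mixed. The authors deposited normalized counts, a signal made by dividing read counts by 1 size factor per library within each table. Per the file headers the table also holds the authors' log2 fold changes and p-values. Nothing deposited was rescaled.

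Genes with a mean of 10 or more were tested on log2(value + 1) with limma 3.58.1 (R 4.3.3, mean trend, Benjamini-Hochberg, threshold 0.05). Whole reads were recovered from the values and tested with edgeR 4.0.16 and DESeq2 1.42.0 as alternatives. The sex difference was an interaction term over 20 libraries. Python 3.11.15, pandas 2.3.3 and matplotlib 3.10.9 made the figures. The code was tested on simulated data. Positions are from GENCODE M21 (GRCm38), promoters from RefSeq (GRCm38.p6).

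Named genes were every called gene, the 10 of smallest p each way with a mean of 20 or more (no predicted genes), a panel of 21 metabolic genes, up to 4 members of smallest p per list described with its defining members, and the 10 widest gaps each way for nicotine 1 and 5. Members named beyond this rule were chosen after their values were seen. The members and 52 gene lists were chosen with earlier results of these data known. A few genes chosen this way are left out of the text.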

Additional observations from a re-analysis of the deposited data

Results flagged for a closer look

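In 11 of 116 groups of 5 libraries tested (list sums and named genes), 1 library lay far from the other 4; chance flags about 1 in 20. Acinar pancreas genes summed to 13047 in nicotine 2, muscle genes to 14045 and ribosomal protein genes to 31853 in nicotine 4. Among genes of the exposed group, Ccn2 read 91.2 in nicotine 1 and Socs2 879 in nicotine 3. In the controls, control 2 stood apart in the female-biased list (147) and Cyp8b1 (430.3), control 3 in Bloc1s4 (36.3) and Sqle (239), and control 5 in lipid-associated macrophage genes (817) and Pck1 (5163).

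At 14 of the 40 named genes the log2 change differed between sons and daughters in limma's interaction test, against 140 of all 9149 genes (1.53%). Genes named for a small p in the sons are favoured in this count. The sons-minus-daughters difference was -4.38 for Cyp7a1, -1.81 for Cyp1a2, -1.51 for Tbx3, -1.35 for Aldoc, -1.13 for Gpam, -1.11 for Cirbp, -1.11 for Banp, -0.90 for Ppm1k, -0.72 for Ppp2r5a and -0.71 for Acbd5. It was 2.58 for Serpinh1, 1.69 for Hsph1, 1.01 for Ski and 0.75 for Mrpl21.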

How the results depend on the processing

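The 5 calls were few and unstable in number, and no direction among them turned: over 112 alternative values of the called genes 0 changed sign, 52 stayed past the threshold and 60 did not. The count was 0 at a mean of 50 or more (710 genes at an unadjusted p below 0.05), 3 by edgeR, 161 by DESeq2 and 21 (7 higher, 14 lower, 2 of the 5 among them, Cirbp and Tbx3) without nicotine 2 and 4. Leaving out each library gave 0 to 12. With the replicate number as a block it was 0, with 1225 genes at an unadjusted p below 0.05. Same-numbered deviations from the group means correlated at -0.13 to 0.08, and only number 5 matched its own number best. The exposed libraries also differed by the pattern of nicotine 1 and 5 and by pancreas and muscle transcripts. This check therefore cannot tell whether the numbers pair the libraries. Without nicotine 1 and 5 the count of calls was 6, of which 1 (Cyp7a1) was among the 5. Quantile normalization gave 1 higher and 3 lower. Scaling to total reads, chosen after seeing the data, moved the median of all genes by 0.11 and gave 3 higher and 2 lower, against 2 and 3. The sex difference called 97 genes with the replicate block, 75 to 289 leaving out each library of the sons, and 489 without nicotine 2 and 4, an alternative added after seeing the data. Of 799 alternative values of other named genes 744 stayed close, 27 passed the threshold, 28 moved and 9 changed sign. The causes were not tested. Depth limits genes near 10 normalized counts, where 1 read is worth 0.736 to 1.28.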

Other observations

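Control 3 read 7.98 for Hba-a1 and 6.20 for Hba-a2, the α-globin genes, against 86.1 to 158 and 57.7 to 102 in the other 9 libraries, while its β-globin Hbb-bs (503) was close to the range of the others (549 to 1340.2). These genes were singled out after their values were seen.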
